A study of Mus musculus with 6 samples.

Results

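The miR-17-92 cluster is a group of miRNA hairpins that are cut from the same transcript. It was described here by its 6 rows in the deposited small RNA table, mmu-mir-17, mmu-mir-18a, mmu-mir-19a, mmu-mir-20a, mmu-mir-19b-1 and mmu-mir-92a-1 (mmu- is left out from here on), which were chosen by name from 855 miRNA precursors. The libraries came from whole retinas of mice aged 4 weeks on a mixed C57BL/6J and SJL background. All mice carried floxed Dicer alleles. The 3 control libraries were Dicerfl/fl, iCre75-, and the 3 conditional knockout (cKO) libraries were Dicerfl/fl, iCre75+, so that only the cKO mice had the Cre recombinase, which the study describes as specific to rod photoreceptors. The iCre75 transgene is driven by the rhodopsin promoter. Each library was made from a pool of 6 retinas, so that rods were measured together with all other retinal cells, and a change in the number of cells of a type cannot be told apart from a change in RNA per cell. The labels call the libraries biological replicates, and the sources used here do not say which animals entered a pool, so p-values measure the spread between these pools.

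Dicer cuts hairpin precursors to the short duplexes from which mature miRNAs are taken, and a mature miRNA finds its target mRNAs mainly through its seed, the bases from position 2 to position 8. The miR-17-92 transcript, Mir17hg, is best known from dividing cells, where Myc and E2f factors drive it, and from tumours, where it was named an oncogenic cluster. In the developing retina and brain it is a miRNA cluster of progenitors, while at 4 weeks the mouse retina holds mature neurons and glia. In the GRCm38.p6 build the hairpins lie on chr14:115043671-115044506, plus strand, within an exon of the long noncoding RNA gene Mir17hg. The span of 836 bases holds all 6 hairpins in the order mir-17, mir-18a, mir-19a, mir-20a, mir-19b-1, mir-92a-1, with 35 to 96 bases between neighbours.

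The cluster makes miRNAs of 4 seed families. The mature forms below are the arm usually kept of each hairpin, from RefSeq (GRCm38.p6), with the seed in capitals, and are shown because the seeds define the families and the remaining bases decide which reads can be told apart.
miR-17-5p: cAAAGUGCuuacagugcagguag
miR-20a-5p: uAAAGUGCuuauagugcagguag
miR-18a-5p: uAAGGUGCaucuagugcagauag
miR-19a-3p: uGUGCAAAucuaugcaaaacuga
miR-19b-3p: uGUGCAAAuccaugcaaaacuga
miR-92a-3p: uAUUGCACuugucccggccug
Counted from the 5′ end, miR-17-5p differs from miR-20a-5p by C1U and C12U, and miR-19a-3p differs from miR-19b-3p by U11C alone. The table gives 1 value per hairpin and does not separate the arms. All 6 members, and the 11 relatives described further on, matched a RefSeq hairpin by name.

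The 6 members of a single transcript were present at very unequal levels. Levels are given in RPKM, reads scaled to the length of the hairpin and to the library's total. Hairpin length alone moves RPKM where the reads are nearly the same: mir-19a and mir-19b-1 differed by 2 to 10 reads per library, and their RPKM gave a steady quotient of 0.940 to 0.955. In control retina mir-92a-1 stood at 57965 ± 14259 RPKM (SD, n = 3), followed by mir-19a at 1216 ± 172, mir-19b-1 at 1147 ± 158, mir-17 at 277.5 ± 27.8, mir-20a at 158.6 ± 24.0 and mir-18a at 17.5 ± 2.44 RPKM (SD, n = 3 each). The order was the same in cKO retina. The levels of mir-19a and mir-19b-1 did not differ beyond their spread, and every other neighbour in this order was separated without overlap within each genotype. By mean level mir-92a-1 ranked 37 of 855 precursors, mir-19a 148 and mir-18a 411. As a share of the summed RPKM of the cluster, mir-92a-1 held 95.1% ± 1.71 in control and 92.5% ± 1.85 in cKO libraries (SD over 3 libraries). In reads the order was the same apart from mir-19a and mir-19b-1. The members ranged from 10 to 26 per library for mir-18a and from 19485 to 39930 for mir-92a-1. Library totals recovered from the values were 5480940 to 7478237 reads.

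**Figure D1:**
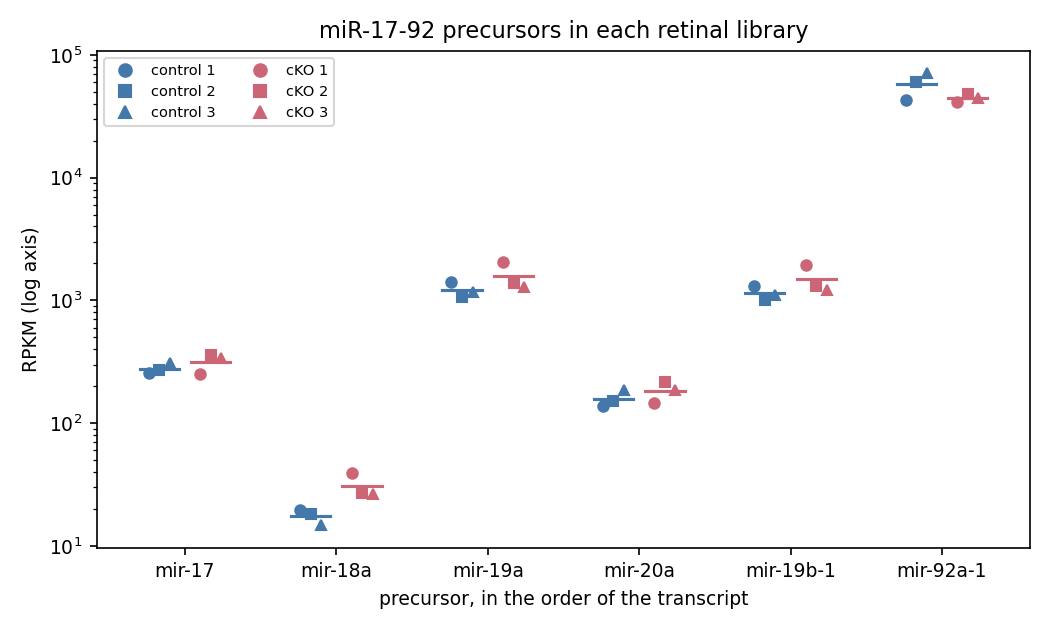
RPKM of each precursor (log axis) in the 3 control and 3 cKO libraries, with symbols for the replicate number and bars for the group mean. In control retina mir-92a-1 stands at a mean of 57965 RPKM against 1216 RPKM for mir-19a, and the groups are apart without overlap only for mir-18a.

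As deposited, 1 of the 6 members passed the test between genotypes. The precursor mir-18a rose 1.71-fold, and the other 5 did not pass (limma on log2(RPKM + 1), with the adjusted p by Benjamini-Hochberg set below 0.05 over the 461 precursors whose mean reached 10 RPKM). All 6 members reached that minimum, and none was lower, also at an unadjusted p below 0.05 (limma). Over all tested precursors 69.4% were called higher and 1.74% lower, so the cluster held fewer higher calls than the table at large. The 6 members are not 6 separate measurements, since mir-19a and mir-19b-1 hold nearly the same reads and mir-17 and mir-20a may do so. The median log2 difference of the members was 0.28, against 0.74 over all tested precursors. RPKM is relative to the library's own total, and mir-182, a photoreceptor miRNA, took 53.2% to 57.4% of control and 27.7% to 33.8% of cKO library reads. Under median-of-ratios scaling, in which the typical precursor is held equal across libraries, no member was called higher and 2 were called lower, where 2.17% of all tested precursors were higher and 9.98% lower. The median over all precursors then moved from 0.74 to 0.02, and that of the members from 0.28 to -0.45. Quantile normalization called 0 members higher and 2 lower, against 2.60% and 6.29% of all tested precursors. Totals without mir-182 reads called 0 higher and 1 lower, against 4.34% and 7.81%, and totals without the 10 most abundant precursors called 0 higher and 1 lower, against 2.60% and 8.89%. The lower member was mir-92a-1 under each scaling, joined by mir-17 under median-of-ratios scaling and quantile normalization.

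The most abundant member, mir-92a-1, carries the AUUGCAC seed that is also known from miR-25, and miR-92a is studied for its effects on vessel growth. Its level was 42552, 60659 and 70685 RPKM in control 1 to 3 and 41315, 48096 and 44438 RPKM in cKO 1 to 3. Control 2 and control 3 lay above all cKO libraries, and control 1 lay among them, so the groups overlapped. As deposited the log2 difference, cKO minus control, was -0.35 (SE 0.18, 95% interval -0.74 to 0.04; limma adjusted p = 0.096), and it did not pass. Of the 461 tested precursors 14 had a lower difference and 32 were negative at all. With median-of-ratios scaling mir-92a-1 fell by 1.08 on the log2 scale (SE 0.15; limma adjusted p = 0.0021), a level 2.11-fold lower in cKO retina. Without control 1 it also fell as deposited, by 0.56 (limma adjusted p = 0.0040), and with each of the 6 libraries left out in turn the difference ran from -0.56 to -0.19. It did not pass when any library other than control 1 was left out (limma adjusted p = 0.099 to 0.33).

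As a share of library reads, mir-92a-1 ranged from 0.331% (Wilson 95% interval 0.326% to 0.335%) in cKO 1 to 0.565% (0.560% to 0.571%) in control 3. The interval holds counting error within a library alone and not the spread between pools. It treats reads as independent, which reads copied by PCR are not. The 3 control libraries ran from 0.340% to 0.565%.

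The pair with the AAAGUGC seed, mir-17 and mir-20a, is known for targeting cell cycle inhibitors and E2f1. The level of mir-17 was 254.7, 269.4 and 308.5 RPKM in control 1 to 3 and 249.2, 358.1 and 338.8 RPKM in cKO 1 to 3. The library cKO 1 was the lowest of all 6, while cKO 2 and cKO 3 were the highest. As deposited mir-17 did not pass, at a log2 difference of 0.17 (SE 0.18, 95% interval -0.23 to 0.57; limma adjusted p = 0.39). It fell by 0.56 under median-of-ratios scaling (SE 0.15; limma adjusted p = 0.040). That call ended when any 1 of the 6 libraries was left out, an alternative chosen after seeing the data (limma adjusted p = 0.061 to 0.12).

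The level of mir-20a was 138.7, 151.8 and 185.3 RPKM in control 1 to 3 and 145.7, 217.6 and 187.6 RPKM in cKO 1 to 3. Its libraries followed the order of those of mir-17 except that control 1 and cKO 1 changed places, and the groups overlapped. The log2 difference was 0.20 as deposited (SE 0.20, 95% interval -0.24 to 0.64; limma adjusted p = 0.37) and -0.53 with median-of-ratios scaling (SE 0.17; limma adjusted p = 0.078). The quotient of mir-17 over mir-20a was 1.65 to 1.84 in the 6 libraries. Reads at mir-17 exceeded those at mir-20a by 37 to 49 in each library, and since the hairpins are near-identical copies in their mature form they may list the same reads.

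The GUGCAAA pair, mir-19a and mir-19b-1, is known as the main oncogenic part of the cluster in lymphoma models. The level of mir-19b-1 was 1319, 1007 and 1117 RPKM in control 1 to 3 and 1935, 1317 and 1223 RPKM in cKO 1 to 3. The library cKO 1 stood above all others, and control 1 lay among the other cKO libraries. The log2 difference was 0.36 as deposited (SE 0.19, 95% interval -0.08 to 0.79; limma adjusted p = 0.12) and -0.37 with median-of-ratios scaling (limma adjusted p = 0.26). For mir-19a the values were 0.35 (limma adjusted p = 0.13) and -0.38 (limma adjusted p = 0.25).

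The AAGGUGC miRNA mir-18a, the rarest member, stood at 19.5, 18.1 and 14.8 RPKM in control 1 to 3 and 39.1, 27.1 and 26.6 RPKM in cKO 1 to 3. All cKO libraries lay above all control libraries, as they did for 71.6% of all tested precursors, with 73.5% apart in either direction. The rise of 0.78 on the log2 scale (SE 0.31, 95% interval 0.09 to 1.47; limma adjusted p = 0.044) rested on 10 to 14 reads in control and 14 to 26 reads in cKO libraries. The call ended when any 1 of the 6 libraries was left out (log2 difference 0.60 to 0.87, limma adjusted p = 0.053 to 0.15). With median-of-ratios scaling mir-18a stood at 0.08 (limma adjusted p = 0.90), and with quantile normalization at -0.05.

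**Figure D2:**
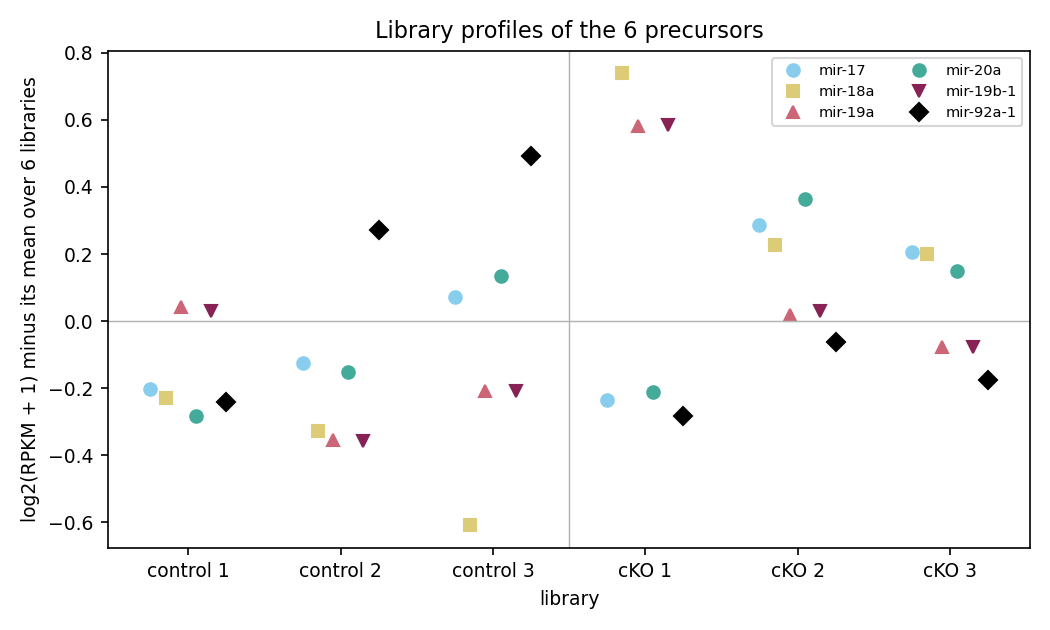
Each precursor's log2(RPKM + 1) in the 6 libraries, less its own mean over them, with control libraries left and cKO libraries right of the line. The points of mir-19a and mir-19b-1 lie level in each library, at 0.58 in cKO 1, those of mir-17 and mir-20a lie close together, and mir-92a-1 is highest in control 3 at 0.49.

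Across the 6 libraries the members of the transcript did not share 1 profile. The likeness of profiles was measured as the root mean square difference of log2(RPKM + 1) values, each less its mean over the libraries. This was 0.006 between mir-19a and mir-19b-1, whose reads are listed nearly alike, and 0.058 between mir-17 and mir-20a, which may list the same reads. These low values are therefore no evidence on seed families. Between mir-17 and mir-19b-1 it was 0.410, and between mir-92a-1 and its neighbours it ran from 0.318 (mir-17 and mir-20a) to 0.688 (mir-18a). The quotient of mir-19b-1 over mir-17 was 5.18 in control 1 and 7.76 in cKO 1, against 3.61 to 3.74 in the other 4 libraries, so that the libraries numbered 1 of both genotypes stood apart from the rest in the balance of these families.

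A ratio between members within a library does not depend on the library's total. In RPKM, mir-92a-1 exceeded mir-17 by a factor of 167, 225 and 229 in control 1 to 3 and of 166, 134 and 131 in cKO 1 to 3. Over mir-20a the factors were 307, 400 and 382 in control and 284, 221 and 237 in cKO libraries. For both neighbours all cKO libraries lay below all control libraries, with control 1 and cKO 1 at 167 and 166 for mir-17 (exact two-sided permutation p = 0.1, the smallest that 3 libraries against 3 allow). Over mir-19b-1 the factors were 32.3, 60.2 and 63.3 in control and 21.4, 36.5 and 36.4 in cKO libraries, and control 1 lay among the cKO libraries. Over mir-18a the factors ran from 2182 to 4792 in control and from 1057 to 1774 in cKO libraries, without overlap. Of all tested precursors 84.6% stood higher against mir-92a-1 in every cKO library than in any control library, and 0.652% lower.

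**Figure D3:**
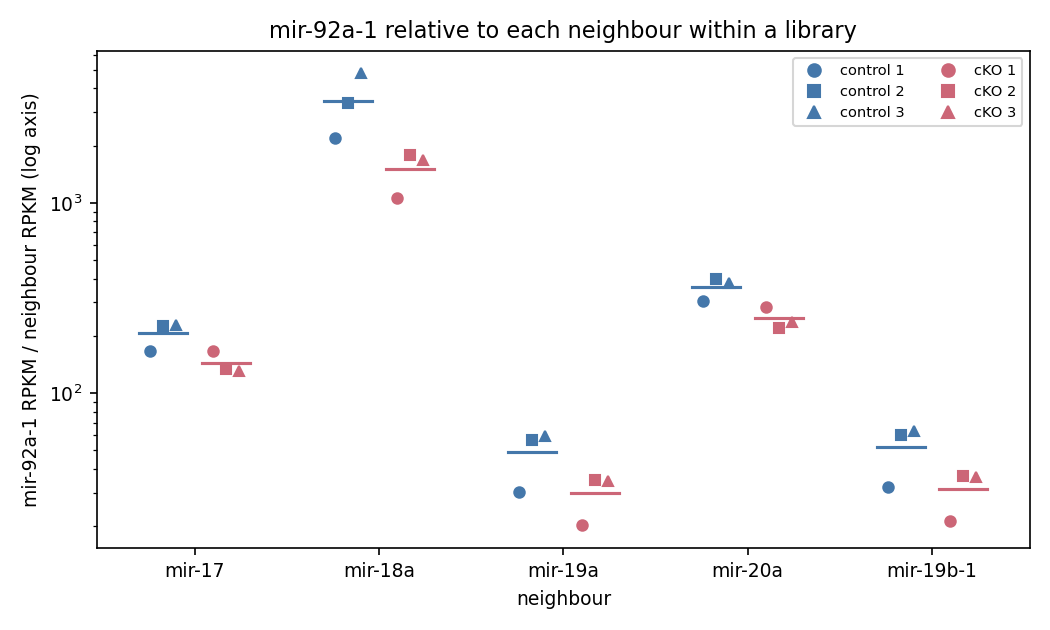
RPKM of mir-92a-1 divided by that of each neighbour in the same library (log axis), with bars for the group mean. The factor over mir-17 runs from 167 to 229 in control and from 131 to 166 in cKO libraries, while for mir-19a and mir-19b-1 control 1 lies among the cKO libraries.

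When each tested precursor was expressed against mir-92a-1 in the same library, all 5 neighbours rose relative to it in cKO retina (limma, adjusted over 460 precursors). The log2 difference of the ratio was 0.52 for mir-17 (SE 0.22; limma adjusted p = 0.036), 0.55 for mir-20a (SE 0.22; limma adjusted p = 0.031), 0.70 for mir-19a (SE 0.29; limma adjusted p = 0.033), 0.71 for mir-19b-1 (SE 0.28; limma adjusted p = 0.031) and 1.13 for mir-18a (SE 0.40; limma adjusted p = 0.016). Of all tested precursors 85.4% were likewise called higher against mir-92a-1 and 0.870% lower. The median over the neighbours, 0.70, lay below the 1.09 of all tested precursors, and the 5 ratios share mir-92a-1 as their reference. Quantile normalization left 0 of 5 called, where 59.3% of all precursors were called higher. With near-identical precursors summed only mir-18a was called (limma adjusted p = 0.041). The reference was then not mir-92a-1 alone but its sum with near-identical precursors, which include mir-92a-2 and mir-92b. That sum had a log2 difference of -0.19 (limma adjusted p = 0.36). The number of neighbours called ran from 0 to 5 when a library was left out: it was 0 without control 3, 1 without control 2, 2 without cKO 1, 3 without cKO 2 or cKO 3, and 5 without control 1. The share of all precursors called was not computed with a library left out. Against the sum of the 5 neighbours mir-92a-1 stood at factors of 13.6, 24.2 and 25.2 in control and 9.37, 14.6 and 14.5 in cKO libraries, and the difference of -0.69 on the log2 scale came with groups that overlapped (exact two-sided permutation p = 0.3).

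Reads of several members cannot be assigned to the cluster alone, since paralogous hairpins make the same or nearly the same miRNA. The cluster's copy on chromosome X, mir-106a to mir-363, holds mir-92a-2 and mir-19b-2, which give rise to miR-92a-3p and miR-19b-3p like mir-92a-1 and mir-19b-1. The hairpins of mir-92a-1 and mir-92a-2 are shown because their longest shared run, in capitals, holds the whole mature form and ends with it.
mir-92a-1: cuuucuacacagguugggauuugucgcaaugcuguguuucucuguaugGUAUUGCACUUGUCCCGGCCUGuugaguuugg
mir-92a-2: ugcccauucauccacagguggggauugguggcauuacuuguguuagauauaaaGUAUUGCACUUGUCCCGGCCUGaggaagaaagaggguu
The shared run has 22 bases.

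For mir-19b the copies held the same counts. Reads at mir-19b-1 and mir-19b-2 differed by 0 to 3 per library, and those at mir-19a and mir-19b-1 by 2 to 10, at totals of 581 to 1166 reads. These 3 rows are therefore not separate measurements. Reads at mir-20a exceeded those at mir-20b of chromosome X by 2 to 13, and reads at mir-17 exceeded those at mir-106a by 84 to 111.

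For mir-92a the copies did not hold the same counts. In RPM, which scales reads to the library's total but not to length, mir-92a-2 stood at 1843, 3211 and 3711 in control 1 to 3 and 1703, 2174 and 2004 in cKO 1 to 3. They varied 2.18-fold from the lowest to the highest library, and control 1 lay among the cKO libraries as it did for mir-92a-1. Reads at mir-92a-1 beyond those at mir-92a-2 were 1562, 1642 and 1944 RPM in control 1 to 3 and 1602, 1673 and 1551 RPM in cKO 1 to 3. This excess varied 1.25-fold, with means of 1716 ± 202 RPM in control and 1609 ± 61.4 RPM in cKO libraries (SD over 3 libraries; exact two-sided permutation p = 0.6). In RPM the range of mir-92a-1 over the libraries was thus mirrored at mir-92a-2, and the excess was nearly level. RPM is relative to the library's total, as RPKM is. Median-of-ratios scaling divides control libraries by 0.741 to 0.844 and cKO libraries by 1.24 to 1.35. An excess that is level in RPM is therefore lower in cKO retina under that scaling. Read lengths were not analysed here.

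**Figure D4:**
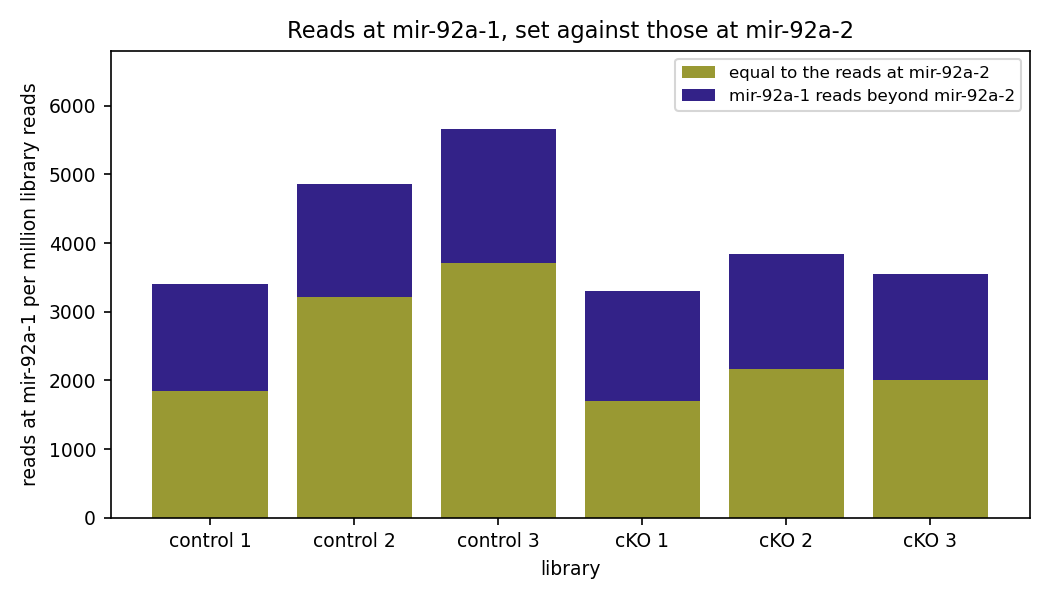
Reads at mir-92a-1 in RPM in each library, split into a part equal in size to the reads at mir-92a-2 (lower bar) and the remainder (upper bar). The lower part runs from 1703 to 3711 and the remainder from 1551 to 1944.

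The relatives of the cluster were the mir-106b, mir-93 and mir-25 cluster in the Mcm7 gene, a helicase subunit of DNA replication, the 6 hairpins of the chromosome X cluster, and mir-92b and mir-32, which share the AUUGCAC seed. Of these 11 precursors 10 were tested, and as deposited 5 rose and none fell, against 69.4% higher and 1.74% lower of all tested. At an unadjusted p below 0.05 (limma) 1 was lower, mir-92a-2. At 5.67 to 11.6 RPKM and 3 to 6 reads per library, mir-363 was under the minimum. In the Mcm7 cluster 3 of 3 rose. In the chromosome X cluster 5 were tested and none passed in either direction. The differences were 0.12 for mir-106a, 0.76 for mir-18b, 0.25 for mir-20b, 0.36 for mir-19b-2 and -0.52 for mir-92a-2 (limma adjusted p = 0.67, 0.17, 0.28, 0.12 and 0.064). Under median-of-ratios scaling none of the 10 was higher, also at an unadjusted p below 0.05 (limma), and 1, mir-92a-2, fell by 1.25 (limma adjusted p = 0.0041). Of all tested precursors 2.17% were then higher and 9.98% lower.

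Among hairpins with the AUUGCAC seed, mir-25 and mir-92b rose relative to mir-92a-1. The relatives are shown to mark how far they differ from miR-92a-3p outside the seed.
miR-25-3p: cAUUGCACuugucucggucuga
miR-92b-3p: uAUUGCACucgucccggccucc
Over the 21 bases of miR-92a-3p, miR-92b-3p differs by U10C and G21C, and miR-25-3p by U1C, C14U and C18U. The level of mir-25 was 11795, 8389 and 9065 RPKM in control 1 to 3 and 15797, 15213 and 15020 RPKM in cKO 1 to 3, all cKO libraries above all control libraries, and it rose 1.59-fold as deposited (log2 0.67, SE 0.15; limma adjusted p = 0.0029). The level of mir-92b was 13628, 13387 and 15574 RPKM in control 1 to 3 and 20467, 24730 and 25976 RPKM in cKO 1 to 3, again without overlap, and it rose 1.67-fold (log2 0.74, SE 0.14; limma adjusted p = 0.0013). Under median-of-ratios scaling the values were -0.06 for mir-25 and 0.01 for mir-92b, and neither passed (limma adjusted p = 0.88 and 0.98).

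Tested directly, the ratio of mir-25 to mir-92a-1 rose 2.03-fold in cKO retina (log2 1.02, SE 0.27; limma adjusted p = 0.0030), and that of mir-92b to mir-92a-1 rose 2.12-fold (log2 1.09, SE 0.21; limma adjusted p = 4.5e-04). Both stand near the median of 1.09 over all tested precursors. In RPKM mir-92a-1 exceeded mir-92b by factors of 3.12, 4.53 and 4.54 in control and 2.02, 1.95 and 1.71 in cKO libraries, without overlap. The rare mir-32 rose 2.23-fold as deposited (log2 1.15, SE 0.26; limma adjusted p = 0.0032), at 20 to 36 reads in control and 44 to 63 in cKO libraries, and stood at 0.43 with median-of-ratios scaling (limma adjusted p = 0.25).

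**Figure D5:**
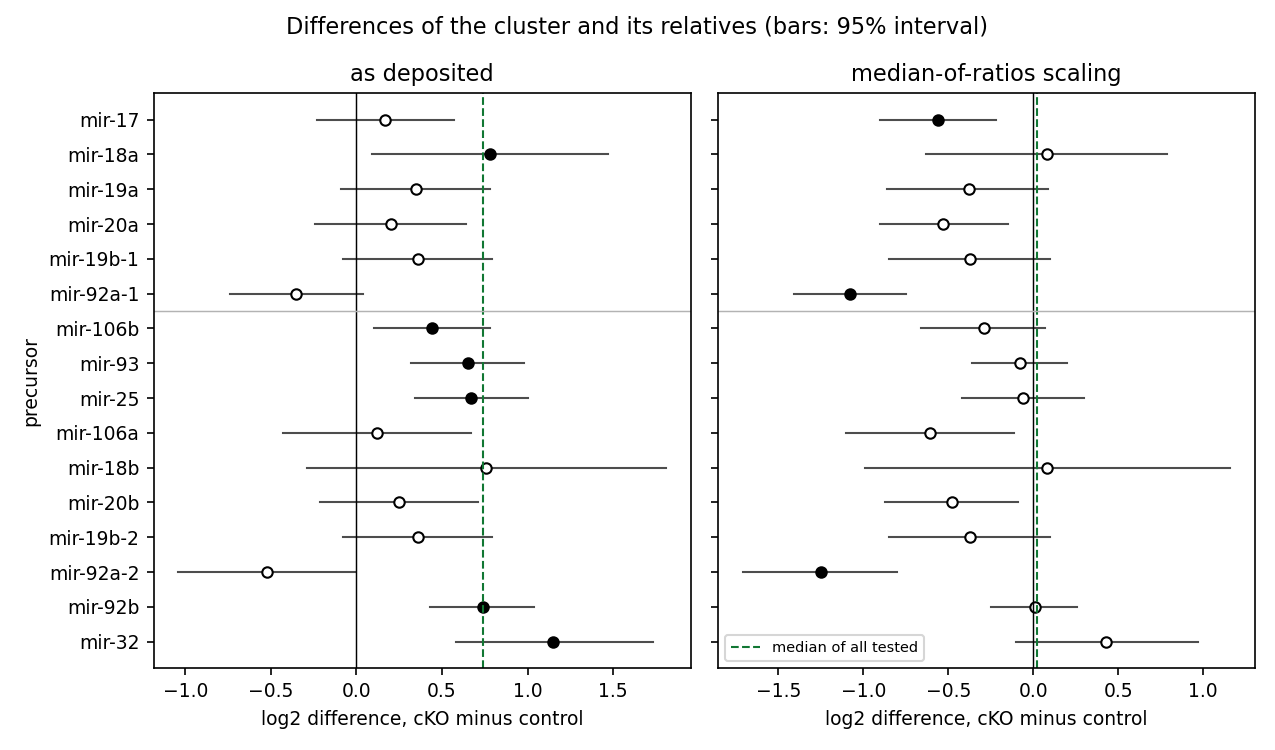
Log2 differences, cKO minus control, of the 6 members (above the line) and 10 tested relatives, as deposited and with median-of-ratios scaling, with bars for 95% intervals, filled points for adjusted p below 0.05 and a dashed line at the median of all 461 tested precursors. As deposited mir-92a-1 and mir-92a-2 lie left of 0, at -0.35 and -0.52, while mir-25 and mir-92b lie near the median of 0.74.

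Profiles of the members were set beside those of 296 other precursors with a mean that reached 100 RPKM, leaving out near-identical copies of members. The closest to mir-92a-1 were mir-425 (root mean square difference 0.118 over 6 libraries), mir-362 (0.139) and mir-872 (0.139), where the median of all was 0.597. Their log2 differences were -0.21, -0.18 and -0.41, of which only that of mir-872 passed (limma adjusted p = 0.38, 0.36 and 0.021). Of the cluster's own members mir-17 and mir-20a were the nearest to mir-92a-1, each at rank 24 among the 296. The closest to the mean profile of the 5 neighbours was mir-106b of the Mcm7 cluster (0.084), followed by the neuronal mir-128-2 (0.110) and mir-128-1 (0.111), where the median was 0.285. The neighbours differed among themselves (0.410 between mir-17 and mir-19b-1), and mir-19a and mir-19b-1 hold nearly the same reads. Nearness to their mean is therefore not nearness to each of them. The level of mir-106b was 669.3 ± 41.6 RPKM in control and 912.1 ± 129 RPKM in cKO libraries (SD over 3 libraries), a rise of 0.44 on the log2 scale as deposited (limma adjusted p = 0.027), below the median of 0.74 over all tested precursors. Its direction turned with scaling, to -0.29 under median-of-ratios scaling (limma adjusted p = 0.25), -0.37 under quantile normalization and -0.19 without mir-182 reads.

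The photoreceptor precursors mir-182, mir-183 and mir-96 summed to 7568213 to 7894241 RPKM in control and 4037712 to 4911543 RPKM in cKO libraries, with 2 of 3 lower, where 1.74% of all tested precursors were lower. Under median-of-ratios scaling the log2 difference went from -0.86 to -1.59 for mir-182, from -0.11 to -0.84 for mir-183 and from -0.49 to -1.22 for mir-96. The neuronal mir-124 was at 203586 to 291230 against 222199 to 265609 RPKM with none of 3 called as deposited, and its 3 rows hold nearly the same reads, so this is 1 measurement summed over 3 hairpins. The log2 difference of mir-124-1 went from -0.07 as deposited to -0.80 under median-of-ratios scaling. Every marker list was detected in full, muscle and lens included, so detection alone does not check the labelled tissue. The higher calls that follow stand beside 69.4% of all tested precursors. Of the 6 markers of blood and immune cells, in which miR-17-92 is also expressed, 4 were higher, mir-223 was not tested, and none was at 0. Their summed RPKM was 18629 to 21893 in control and 30380 to 36666 in cKO retina. Most of that sum was mir-486, whose log2 difference of 0.73 as deposited became 0.00 under median-of-ratios scaling. The endothelial mir-126 was at 5495 to 8953 RPKM in control and 17256 to 18854 RPKM in cKO retina, with log2 differences of 1.37 as deposited and 0.64 under median-of-ratios scaling. The inner retina and glia pair summed to 2681986 to 2898076 against 4405890 to 4754265 RPKM with 2 of 2 higher, and under median-of-ratios scaling mir-9-2 went from 0.72 to -0.01 and mir-181a-2 from 0.71 to -0.02. The pigment epithelium pair summed to 655315 to 758334 against 1197357 to 1475670 RPKM with 2 of 2 higher, and mir-204 went from 0.96 to 0.22. In control libraries mir-204 had 199307 to 224790 and mir-211 194473 to 217203 reads, so these rows may list the same reads and not be separate measurements. The 4 muscle precursors summed to 587.2 to 1021 against 990 to 1546 RPKM, with 1 higher, and mir-206 was not tested. In control libraries mir-1a-1 and mir-1a-2 each had 15 to 26 reads, so these rows may list the same reads. The part of these cell types in the values of the cluster was not tested. The 4 epithelial, lens and cornea markers, with 1 higher, varied widely, at 2825 to 54745 RPKM in control and 25899 to 64123 RPKM in cKO libraries. Dicer1 mRNA was not analysed here, so the genotype labels were not checked on the deleted gene.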

How the data were processed

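Small RNA libraries of 3 control and 3 cKO retina pools were sequenced. The authors deposited RPKM values for 855 precursors. Bowtie and mm9 are named in the submitters' processing notes, while the sources used here do not give the version, the annotation or how reads with several matches were handled. Hairpin sequences are of another build (GRCm38.p6), and served for lengths and sequences only, matched by name for 655 precursors.

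RPKM times hairpin length was a whole multiple of 1 step per library for 100.0% of 3930 values (tolerance 0.01 reads), which gave whole reads and totals. For 167 further precursors the length was the shortest that gave whole reads. The sum over precursors was 1.55 to 1.86 times the number of library reads, so a read matching several precursors was listed at each.

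The test between genotypes was limma 3.58.1 (R 4.3.3, eBayes with trend, two-sided, Benjamini-Hochberg, threshold 0.05) on log2(RPKM + 1), which understates changes of low precursors, over the 461 precursors whose mean reached 10 RPKM. Ratios to mir-92a-1 were fitted likewise, with the same pseudocount. Single ratios were tested by exact permutation over the 6 libraries, and intervals are Wilson 95% intervals from scipy 1.17.1. Figures were drawn with matplotlib 3.10.9. The fit was tested on simulated data. Alternatives covered pseudocount, filter, scaling, variance model, voom on whole reads, summed near-identical precursors (a shared window of 20 bases with at most 1 mismatch), leaving out each library, and a replicate block. The members, relatives, markers and tests were chosen with earlier results of these data known. Named precursors are the members, those 11 relatives, mir-182, the markers, and the 3 closest profiles to mir-92a-1 and to the mean of its neighbours.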

Additional observations from a re-analysis of the deposited data

How the results depend on the processing

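Scaling decided the direction of most members. With median-of-ratios scaling, quantile normalization, totals without the 10 most abundant precursors and totals without mir-182 reads, in this order, the log2 difference was -0.56, -0.57, -0.49 and -0.45 for mir-17, -0.53, -0.57, -0.46 and -0.42 for mir-20a, -0.38, -0.41, -0.32 and -0.28 for mir-19a, -0.37, -0.36, -0.31 and -0.27 for mir-19b-1, and -1.08, -0.74, -1.02 and -0.97 for mir-92a-1. The last was negative under all 18 alternatives, of which that with near-identical precursors summed (-0.19) covers its group and not mir-92a-1 alone. The precursor mir-18a turned sign with quantile normalization (-0.05). Under these 4 scalings 10, 12, 12 and 20 precursors were called higher and 46, 29, 41 and 36 lower, 0 members were higher, and 2, 2, 1 and 1 members were lower. Under quantile normalization 0 neighbours were called higher against mir-92a-1, and the other scalings nearly cancel in a ratio.

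Of the other settings, a mean of at least 100 RPKM left 235 precursors higher, 4 lower and 0 members higher, since mir-18a was not tested. No filter left 318 precursors higher, 10 lower, 0 members higher and 3 neighbours higher against mir-92a-1. The number of neighbours higher was 2 with eBayes without trend. It was 1 of 3 groups with near-identical precursors summed, where the reference was the summed group of mir-92a-1. The cause of these differences was not tested, and the share of all precursors called against the reference was not computed for these settings. Leaving out each library gave 252 to 322 precursors higher and 4 to 12 lower, 0 members higher, 0 to 1 members lower, 0 to 5 neighbours higher against mir-92a-1, and -0.56 to -0.19 for mir-92a-1. With median-of-ratios scaling, a combination chosen after seeing the data, leaving out each library gave -1.23 to -0.96 for mir-92a-1, with adjusted p of at most 0.015 (limma). The log2 difference of the ratio to the summed neighbours stayed negative under the 8 alternatives tried (-0.97 to -0.48).

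Replicate numbers are shared between genotypes. Deviations of same-numbered libraries from their group means correlated across precursors at 0.19, 0.26 and 0.01, against -0.22 to 0.05 between libraries of different number. The libraries numbered 3 lay within that range, so the numbers were not taken to pair the libraries. With a replicate block 2 members were higher (mir-18a and mir-19b-1) and 1 was lower (mir-92a-1, at -0.35, limma adjusted p = 0.043). Depth limits mir-18a, mir-18b and mir-363, which had at most 26 reads in a library.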
